A study of Mus musculus with 3 samples.

Results

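Transcripts of deubiquitinating enzymes were measured in satellite cells, the stem cells of skeletal muscle, sorted from mice. The genes were those of the deposited table whose symbols begin with Usp and a digit, with Otub or Otud or with Stambp, together with Uchl1, Uchl3, Uchl5, Atxn3 and Cyld. Usp9x and Usp9y were left out. This gave 70 genes of the 20308 in the table. The rule reads symbols and no measured values, but it was chosen with earlier results of these data known. Usp6nl met the symbol rule although it encodes a GTPase-activating protein for Rab proteins and no deubiquitinating enzyme. It was kept in the counts and is named as an exception.

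All 3 libraries belong to 1 group. The mice were of the Pax7-ZsGreen strain, in which the green fluorescent protein ZsGreen reports the activity of Pax7, the transcription factor that marks satellite cells. They were 3 months old, and muscle of several animals was pooled before enzymatic digestion. The sort collected about 200000 cells with ZsGreen signal for each sample. The series description speaks of hindlimb muscles, whereas the sample labels name the tibialis anterior. There is no second condition, so the results describe the levels of these genes within 1 cell population and their spread over the libraries. Nothing in the labels tells whether each library had its own pool of mice. The p-values therefore speak only of the spread among these libraries, and that spread may be technical.

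Values are TPM, a measure of abundance that allows for transcript length and adds up to about 1000000 in each library. Depth is unknown, because TPM keeps no read totals. Of 8 satellite cell markers all were above 10 TPM, Pax7 among them at 56.79, 46.37 and 51.09 TPM in replicates 1 to 3, but Pax7 also drove the sort. Markers of other cells were present as well. Above 10 TPM were 6 of 7 fibro-adipogenic and 6 of 7 endothelial genes. So were 2 of 7 leukocyte, 2 of 7 Schwann cell and neural and 1 of 8 muscle fibre genes. Of all genes with any value above 0, 38.2% were above 10 TPM. The summed marker levels over the libraries ran from 5209.36 to 5648.61 TPM for satellite cells, from 2163.59 to 2447.19 for fibro-adipogenic cells, from 1556.3 to 2836.75 for endothelial cells, from 243.4 to 291.39 for leukocytes, from 89.41 to 131.72 for Schwann cells and neurons, and from 77.11 to 157.7 for fibres. The fibro-adipogenic marker below 10 TPM was Pdgfra, a defining one, at 4.98, 0.11 and 0.06 TPM. The highest fibro-adipogenic genes, Gsn, Col3a1 and Dpt, averaged 887.9, 585.3 and 572.2 TPM. Most of the endothelial sum was Fabp4, at 1749.98, 1355.83 and 2587.09 TPM, while the endothelial gene Cdh5 stood at 34.83, 35.6 and 31.83 TPM. The leukocyte genes above 10 TPM were Cd74 and Lyz2, with means of 153.3 and 70.1 TPM, and the fibre gene was Acta1, with 28.6 TPM. The leukocyte gene Cd3e and the fibre gene Myh2 were listed at 0 in every library and were not tested. The part of these cells in the enzymes' levels was not tested. In such bulk samples, fewer cells that use a gene and less RNA of it per cell cannot be told apart.

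Deubiquitinating enzymes cut ubiquitin from proteins and thereby oppose the ubiquitin ligases. They save substrates from the proteasome, change signals carried by ubiquitin chains, and return free ubiquitin to the cell. The USP, UCH, OTU and Josephin families are cysteine proteases, while Stambp and Stambpl1 belong to the JAMM metalloproteases. Satellite cells leave quiescence when muscle is injured, and control of protein stability is part of that switch.

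Most of the enzyme genes were present, at moderate levels. Of the 70 genes, 50 were above 0 in all 3 libraries, 5 in 2 libraries, 5 in 1 library, and 10 were listed at 0 in every library. A listed 0 can be a failed estimate and is not read as absence. The 60 genes above 0 somewhere were tested with limma on log2(TPM + 0.1) against fixed levels of 1 and 10 TPM, with Benjamini-Hochberg adjustment over all 12822 genes tested. Of the 60 genes, 45 (75.0%) lay above 1 TPM, against 60.8% of all genes tested, and 1 lay below, against 2.18%. Above 10 TPM were 32 (53.3%), against 38.2% of all genes tested, and 6 lay below 10 TPM, against 17.5%. The median of the tested enzyme genes was 21.97 TPM, and that of all genes tested was 11.5 TPM. No test was made between these shares. The 7 calls of genes lying below a level are weak: when any 1 library was left out, limma called none of the enzyme genes below 1 or 10 TPM.

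Together the 70 genes made up 0.221% ± 0.0131 (SD, n = 3) of all TPM. Their summed level was 2252.68, 2320.77 and 2068.05 TPM in replicates 1, 2 and 3, so the 3 libraries carried similar amounts, with replicate 3 the lowest. The 10 highest genes held 51.4% ± 2.33 of that sum and the 20 highest held 73.6% ± 0.705. Over the whole range from Usp47 down to Usp29, only 2 of 59 neighbours in the order of mean levels had libraries that did not overlap: Usp7 lay above Otud4, and Usp2 lay above Otud1. The order of neighbouring genes is therefore mostly not resolved.

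**Figure D1:**
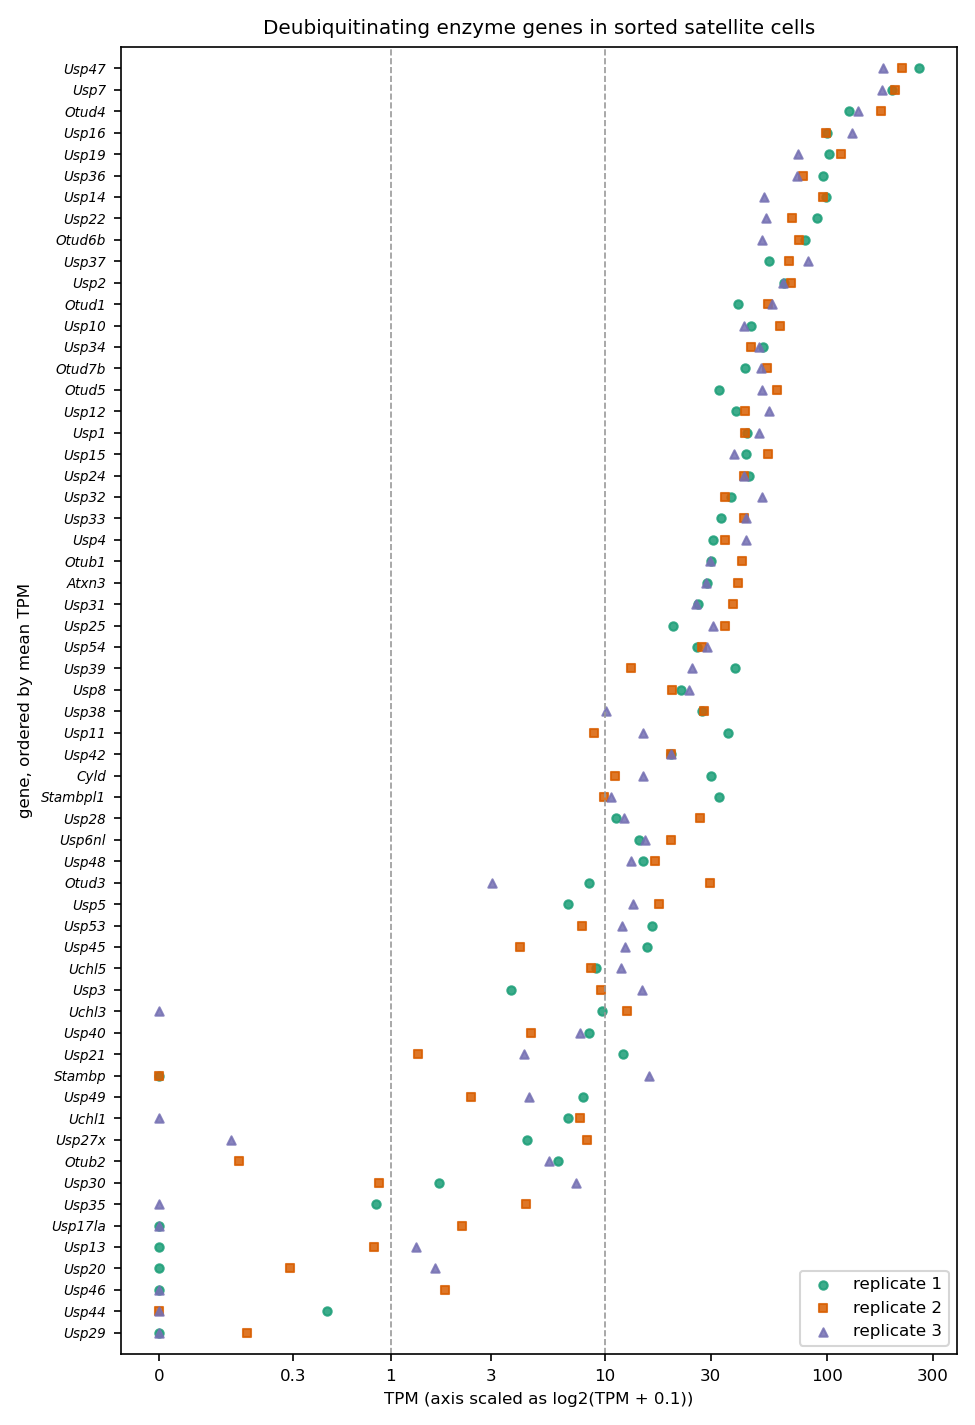
Transcript level in TPM (horizontal axis, scaled as log2(TPM + 0.1)) of the 60 tested genes, ordered by mean TPM, with a circle, a square and a triangle for replicates 1, 2 and 3 and dashed lines at 1 and 10 TPM. Points of the same gene lie close together above about 30 TPM and spread widely below 10 TPM, where several genes are listed at 0 in 1 or 2 libraries.

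The highest of these genes was Usp47, whose product acts in base excision repair by sparing DNA polymerase beta (chromosome 7, 112023504 to 112111661, GRCm38). Usp47 stood at 260.01, 218.64 and 179.86 TPM in replicates 1 to 3, a mean of 219.5 ± 40.1 TPM (SD, n = 3), and ranked 711 among all genes of the table. Usp7, which deubiquitinates both p53 and its ligase Mdm2 (chromosome 16, 8689595 to 8792308), stood at 196.5, 203.51 and 176.51 TPM. The ranges of Usp47 and Usp7 overlapped. Otud4, an OTU enzyme linked to repair of alkylated DNA (chromosome 8, 79639618 to 79677724), stood at 125.7, 175.13 and 137.94 TPM. Usp16, which removes ubiquitin from histone H2A (chromosome 16, 87454703 to 87483517), stood at 100.68, 99.67 and 129.56 TPM and overlapped with Otud4. No other member averaged 100 TPM or more.

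The promoters of the enzymes are shown for 5 genes, chosen to set high genes beside a low paralogue and beside genes listed at 0. Each sequence is 200 bases long and ends 50 bases before the transcript start, from RefSeq on GRCm38.p6, written on the strand of the gene, with every CpG dinucleotide in capitals. Usp47 lies at chr7:112023256-112023455 (plus strand), Usp12 at chr5:146795007-146795206 (minus strand), Usp46 at chr5:74068462-74068661 (minus strand), Otud7a at chr7:63444522-63444721 (plus strand) and Usp26 at chrX:51801284-51801483 (minus strand).
Usp47: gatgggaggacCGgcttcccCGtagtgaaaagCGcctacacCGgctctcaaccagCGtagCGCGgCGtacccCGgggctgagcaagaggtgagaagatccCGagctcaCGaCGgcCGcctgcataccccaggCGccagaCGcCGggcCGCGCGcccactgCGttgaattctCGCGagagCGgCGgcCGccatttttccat
Usp12: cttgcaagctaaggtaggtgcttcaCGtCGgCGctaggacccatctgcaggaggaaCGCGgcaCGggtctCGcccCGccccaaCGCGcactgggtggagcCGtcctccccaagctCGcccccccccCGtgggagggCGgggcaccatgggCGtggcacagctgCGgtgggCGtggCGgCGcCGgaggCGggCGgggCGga
Usp46: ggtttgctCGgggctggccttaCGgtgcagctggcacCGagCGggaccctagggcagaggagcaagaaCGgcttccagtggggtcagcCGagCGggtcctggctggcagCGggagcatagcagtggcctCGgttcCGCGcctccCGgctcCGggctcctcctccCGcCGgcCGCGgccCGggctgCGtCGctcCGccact
Otud7a: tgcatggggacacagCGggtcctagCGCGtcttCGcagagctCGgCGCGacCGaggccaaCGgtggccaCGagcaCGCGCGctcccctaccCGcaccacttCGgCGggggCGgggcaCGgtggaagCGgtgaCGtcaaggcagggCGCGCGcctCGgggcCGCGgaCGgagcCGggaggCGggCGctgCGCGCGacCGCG
Usp26: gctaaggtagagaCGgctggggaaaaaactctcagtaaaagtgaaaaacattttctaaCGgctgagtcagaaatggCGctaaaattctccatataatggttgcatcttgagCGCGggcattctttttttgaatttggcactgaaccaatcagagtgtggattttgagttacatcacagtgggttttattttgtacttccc
These sequences hold 25, 23, 21, 35 and 5 CpG in that order. Usp12 and Usp46 encode close paralogues and have similar CpG content here, yet averaged 45.6 and 0.613 TPM.

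Promoter CpG content was counted over the 250 bases before the start for the 57 genes with an entry, taking the window with the most CpG where a gene had several. The 32 genes of at least 10 TPM on average had a median of 25 CpG, and 21 of them (65.6%) had at least 20. For all genes of the table at that level the median was 19, and 46.6% had at least 20. The 17 genes above 0 and under 10 TPM had a median of 15 CpG, and 7 of them (41.2%) had at least 20. For all genes of the table between these levels the median was 14, and 29.3% had at least 20. Among the 8 genes listed at 0 in every library the median was 3.5 CpG, against 3 for all genes of the table listed at 0. Of the Usp17-like cluster on chromosome 7, Usp17lb, Usp17lc and Usp17ld held 1, 1 and 0 CpG, and Usp50 held 2. Otud7a was the clearest exception, with 44 CpG and no listed transcript, and Otud6a, also listed at 0, held 13. Among the low genes above 0, Usp46 held 33 CpG, Usp13 28 and Usp35 25. In the other direction, Usp54 with 4 CpG, Usp11 with 5 and Usp10 with 6 averaged 27.4, 19.9 and 49.9 TPM. The Usp54 window, chr14:20618355-20618604, lies inside the gene, annotated on the minus strand from 20548912 to 20641063. Other windows also lie inside their annotated genes, among them those of Usp7, Usp37 and Usp2, with 55, 28 and 25 CpG. Whether such windows hold the main promoters was not tested. These counts are descriptions, and no test was made of them.

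Short motifs were searched on both strands of the 250 bases before the start. Where a gene had several windows, a match in any of them counted. The GC box GGGCGG occurred in 25 of the 32 genes of at least 10 TPM (78.1%) and in 69.0% of all genes of the table at that level. For all 27025 genes with a promoter entry the share was 35.4%. Among the 17 enzyme genes above 0 and under 10 TPM it was 58.8%, against 56.5% of table genes between these levels. The ETS-type sequence CCGGAAG occurred in 7 of the 32 (21.9%) and in 17.1% of all genes of the table at that level, against 7.83% of all promoters. CCAAT went the other way, in 7 of the 32 (21.9%) against 39.6% of all genes of the table at that level. It occurred in 7 of the 17 genes above 0 and under 10 TPM (41.2%), against 41.5% of table genes there. Among the 8 genes listed at 0 it occurred in 5, against 37.9% of table genes listed at 0. These 5 were Otud6a, Usp26 and the related copies Usp17lb, Usp17lc and Usp17ld. Of all promoters 37.5% held it. TATAAA occurred in 1 of the 32, against 7.9% of all genes of the table at that level and 14.3% of all promoters. It occurred in 3 of the 8 genes listed at 0, against 1211 of 5513 table genes listed at 0, and these 3 were the related copies Usp17lb, Usp17lc and Usp17ld. The cyclic AMP element TGACGTCA, an NRF1 consensus and a kappaB consensus occurred in 0, 0 and 1 of the 32, and in 1.77%, 0.877% and 0.159% of all promoters. A match describes letters and is no evidence of binding.

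**Figure D2:**
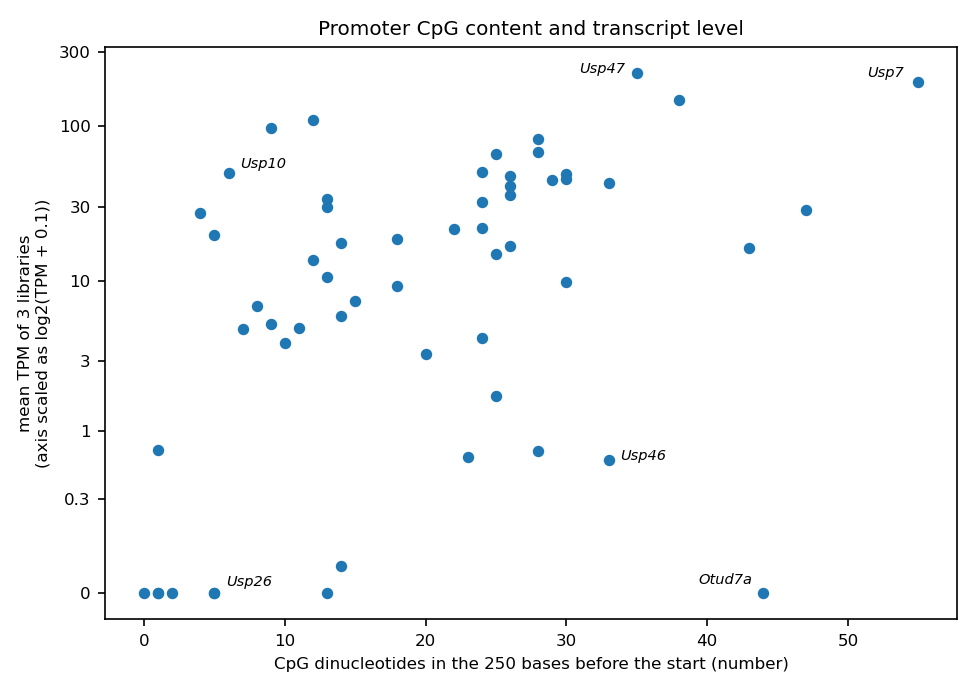
CpG dinucleotides in the 250 bases before the start (horizontal axis, number) against mean TPM of the 3 libraries (vertical axis, scaled as log2(TPM + 0.1)) for the 57 enzyme genes with a promoter entry, 1 point per gene. The genes at the bottom left are listed at 0 and have few CpG, while Otud7a at the bottom right has 44 CpG and is also listed at 0. Some low genes above 0 have many CpG as well, such as Usp46 with 33.

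Enzymes of histones and transcription ran from high levels down to 0. Of 13 genes, 12 were tested, and Usp51 was listed at 0 throughout. Of the 12 tested, 7 were above 1 TPM, 5 of these above 10 TPM, and 5 were not decided at 1 TPM. Of all genes tested, 60.8% were above 1 TPM and 38.2% above 10 TPM, close to the shares of this group. The group's median level was 9.32 TPM, and Usp7 and Usp16 led the group. Usp22, the subunit of the SAGA coactivator that removes ubiquitin from histone H2B, stood at 90.16, 69.97 and 53.48 TPM. Its paralogues, which can take its place in SAGA-type modules, were lower in every library. Usp27x stood at 4.42, 8.25 and 0.11 TPM and was above 1 TPM only without replicate 3 (limma, Benjamini-Hochberg adjusted p = 0.0103). Usp51 was listed at 0. The partners that activate Usp22 were also present, with Atxn7l3 at 53.7 ± 8.11 TPM, Eny2 at 51.3 ± 14.05 TPM and Atxn7 at 70.7 ± 5.04 TPM.

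Further histone enzymes were lower. Usp12, an enzyme activated by Wdr48, stood at 39.22, 42.79 and 54.92 TPM. Usp42 was the steadiest member, at 19.92, 19.82 and 19.95 TPM, above 10 TPM in limma's test (Benjamini-Hochberg adjusted p = 0.0158) but not without replicate 2 (0.066). Usp11, a nuclear enzyme, stood at 36.04, 8.88 and 14.92 TPM, so replicate 1 was far above the others. It was not decided at 10 TPM (limma, Benjamini-Hochberg adjusted p = 0.159) but lay above that level without replicate 2 (0.00758). Usp3, which acts on histone H2A, stood at 3.71, 9.55 and 14.69 TPM. Usp21 and Usp49 were not decided even at 1 TPM, although both were above it without replicate 2 (limma, Benjamini-Hochberg adjusted p = 0.0035 and 0.0207), and Usp49 also with a pseudocount of 0.01 TPM (0.044), with genes of at least 0.1 TPM on average (0.0407) and with no variance trend (0.0252). Usp21 stood at 12.05, 1.36 and 4.25 TPM. Usp49, an H2B enzyme, stood at 7.93, 2.42 and 4.52 TPM, and 51.2% of its annotated exon bases are shared with an overlapping gene on the same strand, Gm20517. Usp44, another H2B enzyme with a role in the spindle checkpoint, was above 0 in replicate 1 alone, at 0.47 TPM, and was below 10 TPM in limma's test (Benjamini-Hochberg adjusted p = 0.00283).

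Enzymes of DNA repair and the cell cycle were led by Usp47. Of 8 genes, 7 were above 1 TPM and 4 above 10 TPM, against 60.8% and 38.2% of all genes tested. Another 3 were not decided at 10 TPM and Usp29 lay below both levels. The group's median was 30.1 TPM. Usp37, which stabilises cyclin A, stood at 54.94, 67.62 and 82.38 TPM. Usp1, which removes ubiquitin from the Fanconi protein Fancd2 and from Pcna, stood at 43.69, 43.12 and 49.59 TPM. A share of 33.5% of the 31-base words of its longest transcript also occurs in other genes. Its level may therefore depend on how shared reads were divided, but the annotation used for the TPM is not given. Wdr48, the obligate partner of Usp1, stood at 20.3 ± 7.26 TPM. Usp24 was steady at 44.95, 42.4 and 42.58 TPM.

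The lower genes of this group varied more. Usp28, which acts in the DNA damage response, stood at 11.28, 27.03 and 12.14 TPM, and replicate 2 was the high one. Usp48 stood at 14.9, 16.8 and 13.19 TPM. Usp45, linked to nucleotide excision repair, stood at 15.46, 4.08 and 12.39 TPM, with replicate 2 the low one. Usp29, an imprinted gene of germline and brain, was the only member below 1 TPM (limma, Benjamini-Hochberg adjusted p = 0.0365). It was above 0 in replicate 2 alone, at 0.15 TPM, and its call was lost without replicate 1 (adjusted p = 0.511), without replicate 3 (0.553) and with a pseudocount of 0.01 TPM (0.106). Without replicate 2 it had no value to test.

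Enzymes of RNA metabolism, translation and the nucleolus were present with 1 exception. Of 7 genes, 6 were tested, and all 6 were above 10 TPM, against 38.2% of all genes tested. Otud6a was listed at 0 in each library. The group's median level was 45.3 TPM. Usp36, a nucleolar enzyme, stood at 96.4, 78.5 and 73.41 TPM. Otud6b, which binds the translation machinery, stood at 79.8, 74.74 and 51.39 TPM. Usp10, which associates with the stress granule protein G3bp1, stood at 45.57, 61.75 and 42.27 TPM, with G3bp1 at 142.9 ± 25.3 TPM and G3bp2 at 60.9 ± 12.6 TPM. Usp15 and Usp4, related enzymes that act on splicing factors and on TGF-beta receptors, overlapped. Usp15 stood at 43.19, 54.27 and 38.33 TPM, and Usp4 at 30.63, 34.76 and 43.2 TPM. Usp39 is a spliceosome protein with the fold of a deubiquitinating enzyme but without its full set of catalytic residues. It stood at 38.54, 13.1 and 24.83 TPM, and without replicate 1 it was no longer above 10 TPM (limma, Benjamini-Hochberg adjusted p = 0.131). The same call was lost with no variance trend (limma, Benjamini-Hochberg adjusted p = 0.0913).

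Enzymes of inflammatory and interferon signalling were present with clear exceptions. Of 12 genes, 10 were tested. Of these 10, 9 were above 1 TPM and 8 above 10 TPM, against 60.8% and 38.2% of all genes tested. Another 1 was not decided at 1 TPM and 2 were listed at 0. The group's median was 29.3 TPM. Otud1, an OTU enzyme of innate signalling, stood at 39.83, 54.45 and 57.01 TPM. Otud7b, also called Cezanne, which restrains NF-kappaB signalling, stood at 42.73, 53.69 and 50.61 TPM, and Otud5, which acts on Traf3, at 32.89, 60.05 and 51.19 TPM. The libraries of Otud1, Otud7b and Otud5 overlapped, so no order among the 3 is resolved. Otud4, at a mean of 146.3 TPM, was also counted in this group and was its highest gene. Usp18, an interferon-induced enzyme that removes the ubiquitin-like protein Isg15, was listed at 0 in all libraries, as was Otud7a.

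Otub1, which inhibits ubiquitin-conjugating enzymes by binding them, stood at 30.24, 41.43 and 29.91 TPM. Its target Ube2n stood at 151.2 ± 12.3 TPM. Otub2, the paralogue of Otub1, stood at 6.11, 0.13 and 5.59 TPM, and replicate 2 was nearly at 0. It was above 1 TPM only without that replicate (limma, Benjamini-Hochberg adjusted p = 0.0252). Cyld, a tumour suppressor that cuts the chains needed for NF-kappaB activation, stood at 30.2, 11.08 and 14.88 TPM. Cyld was above 1 TPM (limma, Benjamini-Hochberg adjusted p = 6.5e-06) and not decided at 10 TPM (adjusted p = 0.111), a level it passed without replicate 2 (0.0303). Spata2, which bridges Cyld to the linear ubiquitin ligase, stood at 26.2, 26.87 and 25.23 TPM. Usp25 stood at 20.27, 35 and 30.83 TPM and Usp31 at 26.22, 37.88 and 25.89 TPM. Usp38 stood at 27.44, 28.13 and 10.13 TPM and passed 10 TPM narrowly (limma, Benjamini-Hochberg adjusted p = 0.0455). That call was lost under 5 of the 9 alternative settings, with adjusted p between 0.069 and 0.225.

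Among enzymes at organelle membranes and in protein quality control, Usp19 was the highest. Usp19, anchored in the endoplasmic reticulum in 1 of its forms and studied in muscle wasting, stood at 102.52, 115.43 and 74.59 TPM. Of the 7 genes, 5 were above 1 TPM and 4 above 10 TPM, against 60.8% and 38.2% of all genes tested. The group's median was 32.5 TPM. Usp32, a membrane-bound enzyme of the Golgi and endosomes, stood at 36.95, 34.84 and 51.15 TPM. Atxn3, the Josephin enzyme that is mutated in spinocerebellar ataxia, stood at 28.95, 40.01 and 28.54 TPM. Its partner Vcp, the ATPase that extracts ubiquitinated proteins from membranes, stood at 481.5 ± 21.2 TPM. Usp33 stood at 33.4, 42.41 and 43.49 TPM, although 24.4% of its exon bases overlap genes on the opposite strand and the strand setting is not given. Its paralogue Usp20 stood at 0, 0.29 and 1.65 TPM. Usp30, the mitochondrial enzyme that opposes Parkin, stood at 1.72, 0.88 and 7.36 TPM and was not decided at 1 TPM. Otud3 was the most variable gene above 0 in all libraries among those of at least 5 TPM, at 8.43, 29.79 and 3.05 TPM, a 9.77-fold range. Otud3 was above 1 TPM (limma, Benjamini-Hochberg adjusted p = 0.00242), but not without replicate 2 (0.0645).

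The proteasome carries 3 deubiquitinating enzymes, and they were unequal in level. Psmd14, the JAMM subunit built into the proteasome lid and not covered by the symbol rule, stood at 123.5, 107.3 and 117.26 TPM. Usp14, which binds the proteasome reversibly and trims chains, stood at 99.17, 96.35 and 52.02 TPM, and replicate 3 was the low one. Of its exon bases, 26.0% overlap Thoc1 on the opposite strand. Uchl5 stood at 9.15, 8.67 and 11.88 TPM, below Usp14 in every library. Their docking subunits Psmd2, which binds Usp14, and Adrm1, which binds Uchl5, stood at 341.1 ± 61.4 and 101.8 ± 23.3 TPM.

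Enzymes that sort receptors at endosomes were modest. Usp8, which acts on receptors and on the sorting complex, stood at 22.08, 20.1 and 23.91 TPM and was above 10 TPM. Stambp, also called AMSH, was listed at 0, 0 and 15.86 TPM, and its paralogue Stambpl1 at 32.63, 9.95 and 10.65 TPM. The adaptor Stam, to which Stambp and Usp8 bind, stood at 105.2 ± 13.1 TPM, Stam2 at 10.1 ± 5.88 TPM and Hgs at 43.3 ± 12.8 TPM. Stambp had the largest range on the log2 scale among members of at least 5 TPM, and its presence rests on replicate 3 alone.

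The enzymes that recycle free ubiquitin had a median level of 6.14 TPM, with medians of 6.795, 10.17 and 0.665 TPM within replicates 1 to 3, the last with 2 of the 4 genes listed at 0. Usp5, or isopeptidase T, which takes apart unanchored chains, stood at 6.79, 17.55 and 13.35 TPM. It was the only 1 of the 4 genes above 1 TPM (limma, Benjamini-Hochberg adjusted p = 8.82e-05), against 60.8% of all genes tested. Uchl3 stood at 9.72, 12.61 and 0 TPM and Uchl1, an abundant enzyme of neurons, at 6.8, 7.73 and 0 TPM. Both were listed at 0 in replicate 3, and without that replicate both were above 1 TPM (limma, Benjamini-Hochberg adjusted p = 3.21e-07 for Uchl3 and 0.00135 for Uchl1). The summed Schwann cell and neural markers were highest in replicate 3. Usp13, the paralogue of Usp5, stood at 0, 0.83 and 1.33 TPM.

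**Figure D3:**
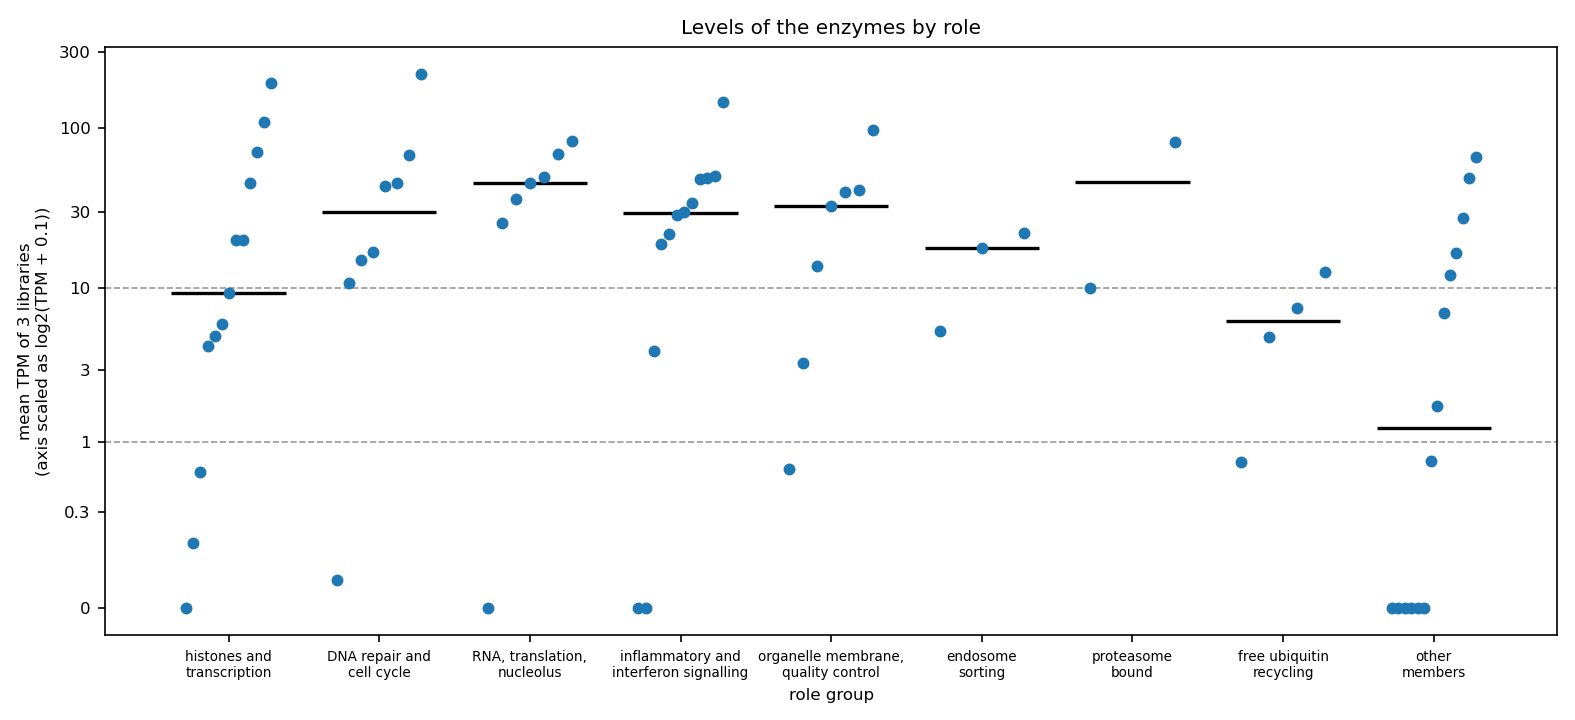
Mean TPM of the 3 libraries (vertical axis, scaled as log2(TPM + 0.1)) of each of the 70 genes by role group, 1 point per gene, with a black bar at the group median and dashed lines at 1 and 10 TPM. The group of RNA, translation and nucleolus has all but 1 gene above 10 TPM, while the group of free ubiquitin recycling has a median of 6.14 TPM.

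The remaining 14 genes belonged to no role group and were split between moderate levels and 0. Usp2, linked to cyclin D1 and to the circadian clock, was steady at 64.41, 69.46 and 63.36 TPM. Usp34, which acts on axin in Wnt signalling, stood at 51.76, 45.54 and 49.8 TPM. Usp54 stood at 26.13, 27.35 and 28.78 TPM and Usp53 at 16.39, 7.84 and 11.93 TPM. The non-enzyme Usp6nl stood at 14.26, 19.95 and 15.17 TPM, and without it the counts were 44 genes above 1 TPM and 32 above 10 TPM. Usp40 stood at 8.48, 4.62 and 7.73 TPM and Usp35 at 0.85, 4.38 and 0 TPM. Of the Usp17-like genes, Usp17la was listed at 2.2 TPM in replicate 2 and at 0 in the others. A share of 40.2% of its 31-base words occurs in other genes of the cluster and elsewhere. Usp17lb, Usp17lc, Usp17ld, Usp26, Usp43 and Usp50 were listed at 0 in all libraries.

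Related enzymes were compared within each library in 23 pairs, which join enzymes of similar sequence and, in the case of Usp14 and Uchl5, enzymes bound to the proteasome, since TPM is corrected for length. In 19 pairs the same gene was higher in all 3 libraries. An exact sign-flip permutation test over 3 libraries cannot give a two-sided p below 0.25, which was the value for each of these 19, so no pair passed a threshold. In 4 pairs the second gene was listed at 0 in all libraries (Usp51, Usp43, Otud6a and Otud7a), and in 8 pairs a gene was at 0 in 1 or 2 libraries. No fold is given for these. Usp46, the lower gene beside Usp12, stood at 0, 1.84 and 0 TPM.

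For the 11 pairs in which both genes were above 0 in every library, the difference is given on the log2(TPM + 0.1) scale. Usp47 exceeded Usp40 by 4.99 ± 0.51 (31.8-fold), and Usp16 exceeded Usp45 by 3.55 ± 0.953 (11.7-fold). The nucleolar Usp36 exceeded Usp42 by 2.04 ± 0.204 (4.12-fold), the smallest spread among these 11 pairs. Between the proteasome-bound enzymes, Usp14 exceeded Uchl5 by 3.00 ± 0.762 (8.01-fold). Usp22 exceeded Usp27x by 5.13 ± 2.56 and Otub1 exceeded Otub2 by 4.06 ± 2.98, wide spreads that come from 1 library each with the second gene near 0. The log2 ratio of Usp21 to Usp2 was -3.95 ± 1.58. Smaller differences were seen for Usp54 over Usp53 at 1.24 ± 0.56 and for Usp25 over Usp28 at 0.85 ± 0.483, with the first gene higher in 3 of 3 libraries in both.

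Not every pair had a dominant gene. Usp15 and Usp4 differed by 0.32 ± 0.433, with Usp15 higher in 2 of 3 libraries (exact sign-flip permutation p = 0.5). Usp4 and Usp11 differed by 1.08 ± 1.16, with Usp4 higher in 2 of 3 libraries (exact sign-flip permutation p = 0.5). Stambpl1 was above Stambp in replicates 1 and 2 and below it in replicate 3. Uchl3 was above Uchl1 in replicates 1 and 2, and both were at 0 in replicate 3.

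**Figure D4:**
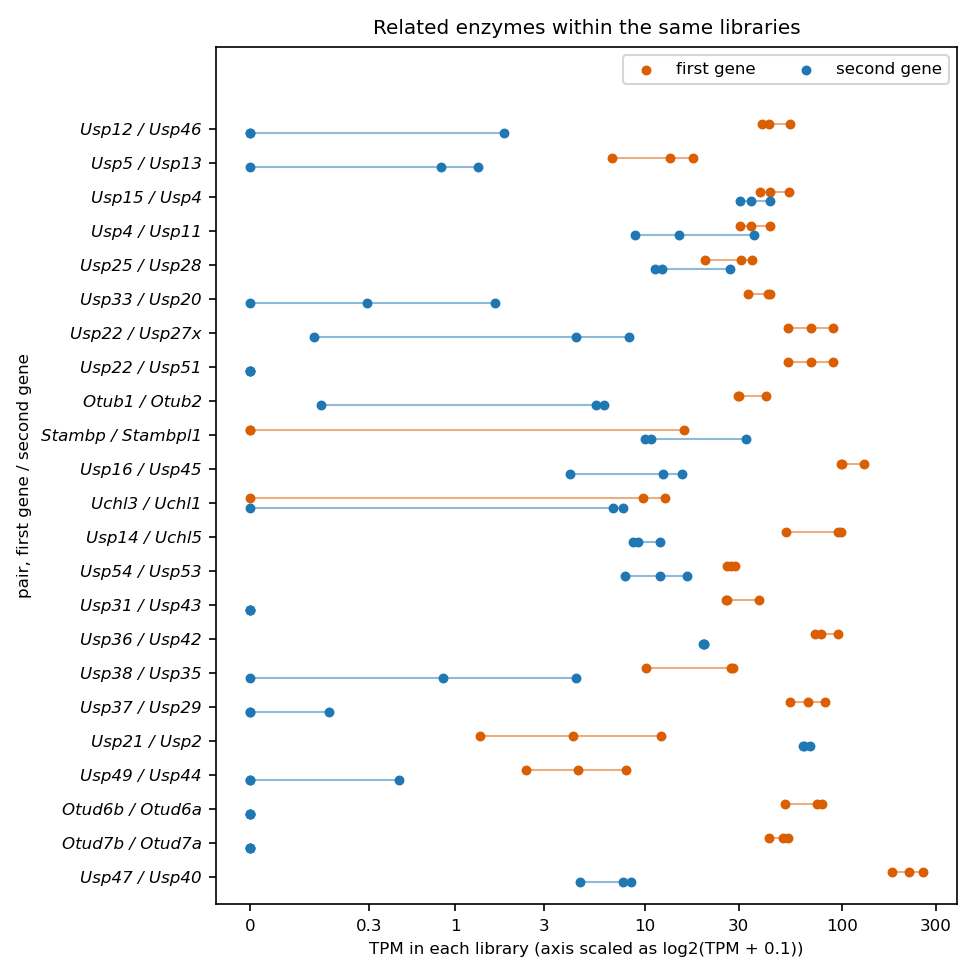
TPM in each of the 3 libraries (horizontal axis, scaled as log2(TPM + 0.1)) for the 23 pairs, with the first-named gene in orange and the second in blue and a line over the range of each gene. In 19 pairs the same gene was higher in all 3 libraries, and the exceptions are Usp15 and Usp4, Usp4 and Usp11, Stambp and Stambpl1, and Uchl3 and Uchl1.

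How far the libraries spread depended on the level. The SD over the libraries on the log2(TPM + 0.1) scale had a median of 0.266 for the 21 enzyme genes between 30 and 100 TPM, against 0.333 for all 2361 genes of the table at that level. Between 10 and 30 TPM the median was 0.695 for 17 enzyme genes, against 0.57 for 2859 genes. Between 1 and 10 TPM it was 2.12 for 12 enzyme genes, against 2.32 for 4553 genes. For the 4 enzyme genes of at least 100 TPM it was 0.23, against 0.17 for 1545 genes, and for the 6 above 0 and under 1 TPM it was 2.06, against 1.89 for 1504 genes. The enzymes' median was thus lower than that of all genes in 2 tiers and higher in 3, and no test was made of these differences. Within the middle tier, 10 to 30 TPM, Usp42 and Usp54 had an SD of 0.00491 and 0.0695, while Otud3 had 1.63, Usp11 1.02 and Usp45 1.02.

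Deubiquitinating enzymes and related proteins that the symbol rule does not reach were described from a list of 19 genes with a row in the table. Some of these, such as Uspl1 and Eif3h, are relatives not established as deubiquitinating enzymes. They were kept in the counts. Above 1 TPM were 18 of them, against 60.8% of all genes tested, and above 10 TPM were 13, against 38.2%, and the median level was 24.5 TPM. Eif3h, a subunit of translation initiation factor eIF3 related to the JAMM enzymes, averaged 509 ± 66.1 TPM. Zranb1, an OTU enzyme of Wnt signalling, averaged 193 ± 13.6 TPM. Bap1, the histone H2A enzyme that opposes Polycomb, stood at 67.7, 61.2 and 74.7 TPM. Tnfaip3, an NF-kappaB feedback inhibitor, stood at 56.65, 33.58 and 36.04 TPM, and Fam105b, the linear-chain enzyme also called Otulin, at 26.51, 54.73 and 50.09 TPM. The member not decided at 1 TPM was Brcc3, at 4.34, 4.64 and 1.85 TPM. Of 18 partner genes, read against the same shares, 18 passed 1 TPM and 17 passed 10 TPM. Their median level was 60.5 TPM.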

How the data were processed

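RNA of sorted ZsGreen-positive cells was sequenced in 3 libraries, with group and replicate number read from the titles. Per the submitters' processing notes, reads passed through CASAVA 1.8, and Bowtie 0.12.9 and RSEM 1.2.3 are named along with mm10. No settings, annotation or strandedness could be read from the labels. The authors deposited 1 table of TPM. By its name, TPM were renormalised without mitochondrial genes. Each column sums to about 1000000. Depth is therefore unknown, and no counting interval is given.

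Genes with any value above 0 were tested with R 4.3.3 and limma 3.58.1, which compared the mean of log2(TPM + 0.1) with the value of 1 or 10 TPM (two-sided, variance trend fitted). Benjamini-Hochberg adjustment covered all 12822 genes, at a threshold of 0.05. A gene that did not pass is called not decided. The script was tested on simulated data. Pairs were compared as log2 ratios within a library with an exact sign-flip permutation test. Alternatives were other pseudocounts, filters, scaling, variance model and leaving out each replicate. Positions and exon overlaps are from GENCODE M21 on GRCm38, the assembly that mm10 names, where all 70 symbols had 1 position, and shared words were counted between longest transcripts on both strands. Promoters are from RefSeq. Values per library are given for the 15 highest members, the 10 with the widest range among those averaging 5 TPM or more, both genes of each pair, the highest and lowest of each role group, members below 1 TPM and Usp6nl. Others were named after their values were seen. The members, role groups, pairs and lists were chosen with earlier results of these data known. Protein sequences were not used here.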

Additional observations from a re-analysis of the deposited data

How the results depend on the processing

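Of the 45 genes above 1 TPM, 44 kept that call under all 9 other settings, the exception being Otud3 without replicate 2 (limma, Benjamini-Hochberg adjusted p = 0.0645). Of the 32 above 10 TPM, 29 kept it, the exceptions being Usp38, Usp39 and Usp42, the last without replicate 2 (adjusted p = 0.066). The count of genes above 1 TPM ran from 45 to 48 and that above 10 TPM from 30 to 33. Calls below a level were not stable. The count below 1 TPM, 1 as reported, was 0 with a pseudocount of 0.01 TPM or with genes of at least 0.1 TPM on average, 2 with a pseudocount of 1 TPM or no variance trend, 12 with no filter on low values, and 0 without any 1 replicate. The count below 10 TPM, 6 as reported, was 2 with a pseudocount of 0.01 TPM, 15 with no filter, and 0 without any 1 replicate. With no filter, the 10 genes listed at 0 entered the test. Rescaling to a common median changed no call. Some undecided genes changed sign, as log2 difference from 1 TPM: Uchl1 at -0.32 with a pseudocount of 0.01 TPM, and Stambp at 0.36 and Usp35 at 0.11 with a pseudocount of 1 TPM. Without 1 replicate each, the differences from 1 TPM ran from -0.15 to 3.34 for Uchl3, were 0.20 for Stambp in both fits that could be made, and ran from -0.41 to 2.74 for Uchl1, -0.18 to 2.48 for Usp27x, -1.84 to 0.91 for Usp35 and -1.85 to 0.068 for Usp13. The differences from 10 TPM ran from -0.96 to 0.66 for Otud3, -0.069 to 0.61 for Usp5, -0.047 to 0.48 for Usp53, -0.48 to 0.46 for Usp45, -0.17 to 0.060 for Uchl5, -0.74 to 0.24 for Usp3 and -3.35 to 0.15 for Uchl3. The cause of these changes was not tested. The number of pairs with 1 gene higher in every library was 19 with either other pseudocount and ran from 19 to 22 without 1 replicate. Depth is unknown, so how far it limits the low genes was not tested. No paired analysis was possible because the samples form 1 group.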
